A study of Danio rerio with 6 samples.

Results

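Except for vtg1, the genes described here encode apolipoproteins and plasma carrier proteins that the yolk and liver of a fish embryo secrete. The list holds 10 genes: the apolipoprotein genes apoa1a, apoa1b, apoa2, apoeb, apoc1 and apobb.1, the yolk protein gene vtg1, and the carrier genes tfa, rbp4 and ttr. A gene was kept if the array's annotation gave a probe set its symbol alone, which left 7 genes with 1 probe set each, out of 8793 genes and 15502 probe sets measured. The genes apoa1b, vtg1 and ttr had no such probe set and are not analysed here. A further 2 probe sets carry the symbols tfa and gstr together and are given apart from the members.

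The samples were pools of whole, dechorionated wild-type AB zebrafish embryos collected at 36 h post fertilisation. From 24 h onwards they were exposed either to 5 µM 11,12-EET or to the solvent DMSO, and 11,12-EET is an epoxide made from arachidonic acid by cytochrome P450 enzymes. Each treatment had 3 arrays that the labels call biological replicates, with 25 embryos per treatment group, and no label names separate clutches, so p-values measure the spread between these pools. The comparison of EET with DMSO asks which transcripts of the whole embryo differed after 12 h of exposure. In a whole-embryo pool, fewer cells of a type and less RNA per cell cannot be told apart.

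As background, the embryo lives on yolk until it feeds. Around the yolk lies the yolk syncytial layer, which packs yolk lipid into lipoproteins and secretes them, with carrier proteins, into the blood, before the liver takes over this task. Apolipoprotein B is the structural protein of the large lipid-rich particles, apolipoproteins A-I and A-II form the small dense ones, apolipoprotein E is a ligand for lipoprotein receptors, and apolipoprotein C-I is a small exchangeable protein that modulates lipid enzymes and particle uptake. Transferrin carries iron, retinol-binding protein 4 carries vitamin A, and transthyretin carries thyroid hormone.

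Array medians lay between 4.81 and 4.82, so the 6 arrays share 1 scale. On the first principal component of the 7751 probe sets at or above the median level, called brighter here, both replicate 3 arrays lay apart from the other 4. That component held 44.0% of the variance, and on the second, with 19.6%, the 3 EET arrays lay on one side of 0 and the 3 DMSO arrays on the other. An RNA quality measure, the 3' minus 5' log2 difference of an actin control, was 2.14 to 2.30 in EET arrays and 1.74 to 2.01 in DMSO arrays. Its part in any value below was not tested.

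None of the 7 genes differed between EET and DMSO beyond the spread between pools. By limma's moderated test, with p-values adjusted by Benjamini-Hochberg over every probe set tested, 0 of 7 passed an adjusted p of 0.05, where 0 of 15502 probe sets (0%) passed. At an unadjusted p under 0.05 it was again 0 of 7, where 817 of 15502 (5.27%) lay under it. Among the brighter probe sets alone, which include all 7, 6 (0.0774%) were called and none was a member. By group mean 4 members were on the higher and 3 on the lower side in EET and their median log2 difference was 0.01, beside 4520 genes higher and 4273 lower and a median of 0.01 over all genes. The differences ran from -0.08 to 0.13, and the adjusted p ran from 0.943 to 0.99996. The EET and DMSO values overlapped in 7 of 7 genes, while in 11.7% of all probe sets they did not.

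**Figure D1:**
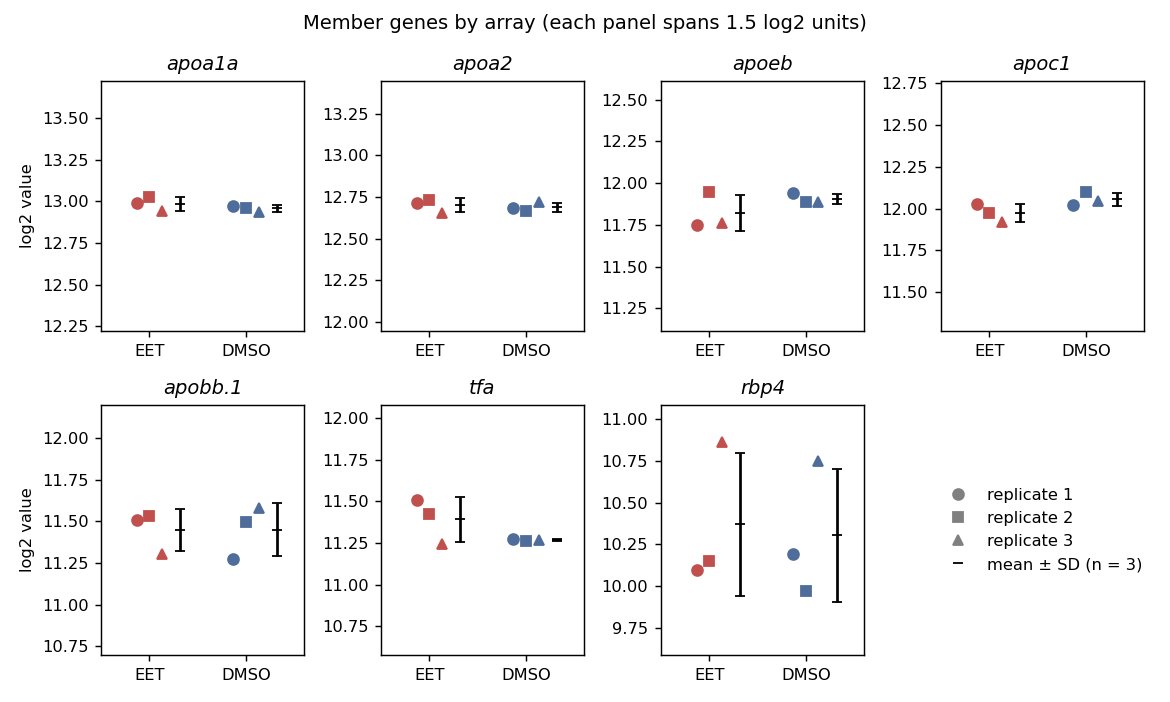
The log2 value of each of the 7 genes in each array, with EET left of DMSO, one marker shape per replicate, and the mean ± SD of 3 arrays beside each group. Every panel spans the same 1.5 log2 units. The groups overlap in all 7 panels, and the widest scatter is that of rbp4, whose replicate 3 values of 10.86 (EET) and 10.75 (DMSO) lie above the rest.

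Of the proteins of small dense lipoproteins, apoa1a encodes apolipoprotein A-I, their main structural protein. Its log2 values were 12.99, 13.02 and 12.94 in EET embryos and 12.97, 12.96 and 12.94 in DMSO embryos. All 6 arrays lay within 0.09 of each other. The log2 difference was 0.03 ± 0.09 (SE, n = 3 arrays a group; limma adjusted p = 0.986), with a 95% interval of -0.19 to 0.25, or 0.875-fold to 1.19-fold. The probe set is among the brightest on the array, 0.36 to 0.69 below the highest value of each array. Whether the signal is compressed so near the top of the scale was not tested.

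The gene apoa2 encodes apolipoprotein A-II, the other protein of these particles. It measured 12.71, 12.73 and 12.65 in EET embryos and 12.69, 12.66 and 12.72 in DMSO embryos on the log2 scale. The highest value was in EET replicate 2, the lowest in EET replicate 3, and the DMSO values lay between them. The difference was 0.01 ± 0.09 (limma adjusted p = 0.993), with a 95% interval of 0.865-fold to 1.17-fold.

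The receptor ligand apolipoprotein E is encoded here by apoeb, which in zebrafish is made in several tissues besides the yolk syncytial layer. Its log2 values were 11.75, 11.95 and 11.76 in EET embryos and 11.94, 11.89 and 11.89 in DMSO embryos. EET replicates 1 and 3 lay below all DMSO arrays, while EET replicate 2 lay above them. The difference was -0.08 ± 0.10 (limma adjusted p = 0.950), with a 95% interval of 0.791-fold to 1.13-fold.

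The gene apoc1 encodes the exchangeable apolipoprotein C-I. In log2 values it stood at 12.03, 11.98 and 11.92 in EET embryos and 12.02, 12.10 and 12.05 in DMSO embryos. EET replicates 2 and 3 lay below every DMSO array, and EET replicate 1 just above the lowest of them. The difference was -0.08 ± 0.09 (limma adjusted p = 0.946), with a 95% interval of 0.808-fold to 1.11-fold.

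The gene apobb.1 encodes an apolipoprotein B, the scaffold of yolk-derived lipoprotein particles. On the log2 scale it measured 11.51, 11.53 and 11.30 in EET embryos and 11.27, 11.50 and 11.58 in DMSO embryos. Both groups spread over nearly the same range, so that the difference was -0.0011 ± 0.13 (limma adjusted p = 0.99996), with a 95% interval of 0.796-fold to 1.25-fold. The 2 replicate 3 arrays lay on opposite sides of their groups: EET replicate 3 was 0.22 below the mean of EET replicates 1 and 2, and DMSO replicate 3 was 0.20 above that of DMSO replicates 1 and 2. Without the replicate 3 arrays the difference was 0.14 (adjusted p = 0.918).

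The largest difference among the 7 genes was that of tfa, the gene of the iron carrier transferrin. Its log2 values were 11.51, 11.43 and 11.24 in EET embryos and 11.27, 11.26 and 11.27 in DMSO embryos. EET replicates 1 and 2 lay above every DMSO array and EET replicate 3 below all of them, while the DMSO arrays were almost alike. The mean was 11.39 ± 0.14 in EET embryos and 11.27 ± 0.0051 in DMSO embryos (SD, n = 3 each), a difference of 0.13 ± 0.11 (SE; limma adjusted p = 0.943) with a 95% interval of 0.904-fold to 1.32-fold. Without both replicate 3 arrays it was 0.20, and in the replicate 3 pair alone it was -0.02.

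The 2 probe sets annotated to both tfa and gstr, a glutathione S-transferase gene, cannot be assigned to either gene. The one that shares the sequence cluster name of the tfa probe set had log2 values of 11.91, 12.05 and 11.99 in EET embryos and 11.99, 11.88 and 11.76 in DMSO embryos, and differed by 0.11 ± 0.11 (limma adjusted p = 0.943). The other had 7.04, 7.05 and 7.03 in EET embryos and 6.86, 6.87 and 7.09 in DMSO embryos, and differed by 0.10 ± 0.11 (limma adjusted p = 0.946). Both lay on the same side as tfa by group mean. Between arrays of the same number, replicates 1, 2 and 3 in turn, tfa differed by 0.24, 0.16 and -0.02. The probe set with the shared cluster name differed by -0.08, 0.17 and 0.24, so that it departed from tfa in sign at replicates 1 and 3. The other differed by 0.17, 0.18 and -0.06, with the sign of tfa at each number.

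The vitamin A carrier gene rbp4 was the most variable of the 7. Its log2 values were 10.10, 10.15 and 10.86 in EET embryos and 10.19, 9.97 and 10.75 in DMSO embryos. In each group replicate 3 stood above the other 2 arrays, by 0.74 in EET and by 0.67 in DMSO. The mean was 10.37 ± 0.43 in EET embryos and 10.30 ± 0.40 in DMSO embryos (SD, n = 3 each), a difference of 0.07 ± 0.30 (SE; limma adjusted p = 0.988). Its 95% interval of 0.618-fold to 1.77-fold was the widest of the 7. With replicate 3 as a batch term, which cannot change the difference in this balanced design, the SE was 0.11 (limma adjusted p = 0.916). Within replicate 3 the EET array was 0.11 above the DMSO array, and in the other 4 arrays the difference was 0.04.

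**Figure D2:**
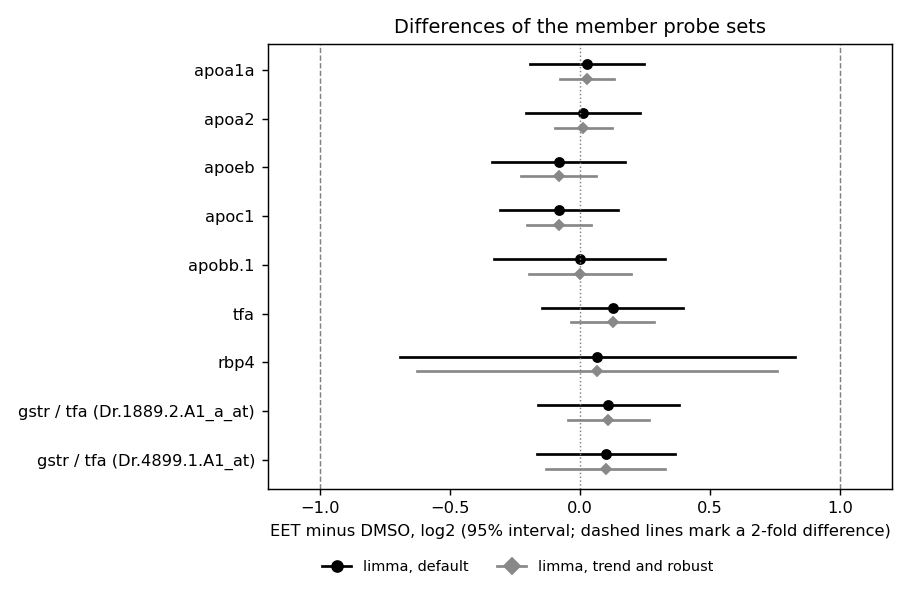
The EET minus DMSO difference on the log2 scale with its 95% interval for the 7 genes and the 2 probe sets shared by tfa and gstr, from limma with default settings (black circles) and with trend and robust settings (grey diamonds). All intervals include 0, and none reaches the dashed lines at a 2-fold difference.

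If the signals follow the amount of RNA, the data bound how large a difference could have gone undetected. No 95% interval of the 7 genes reached a 2-fold difference in either direction, and for the 6 genes other than rbp4 the intervals lay between 0.791-fold and 1.32-fold. These intervals borrow spread from all probe sets, dim ones included. With limma's trend setting, which takes the spread from probe sets of like level, and its robust setting, the interval of apoa1a was 0.948-fold to 1.096-fold, that of apoa2 0.935-fold to 1.087-fold and that of rbp4 0.648-fold to 1.69-fold. The smallest adjusted p of a member in that fit was 0.901. Of the 500 probe sets nearest in level, 3.8% had a lower SD than apoa1a and 4.6% a lower SD than apoa2. The median SD of the nearest probe sets was the same, 0.088, for apoa1a, apoa2, apoeb and apoc1. These genes may thus have been set beside much the same probe sets, which need not be of closely like level. Whether compressed signals narrow the intervals of apoa1a and apoa2 was not tested. The median size of the difference was 0.07 over the 7 genes and 0.10 over the brighter probe sets, which reach down to the median level of 4.81. Of the 500 probe sets nearest in level, the share with a smaller difference in size ran from 2% for apobb.1 to 78.4% for tfa.

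**Figure D3:**
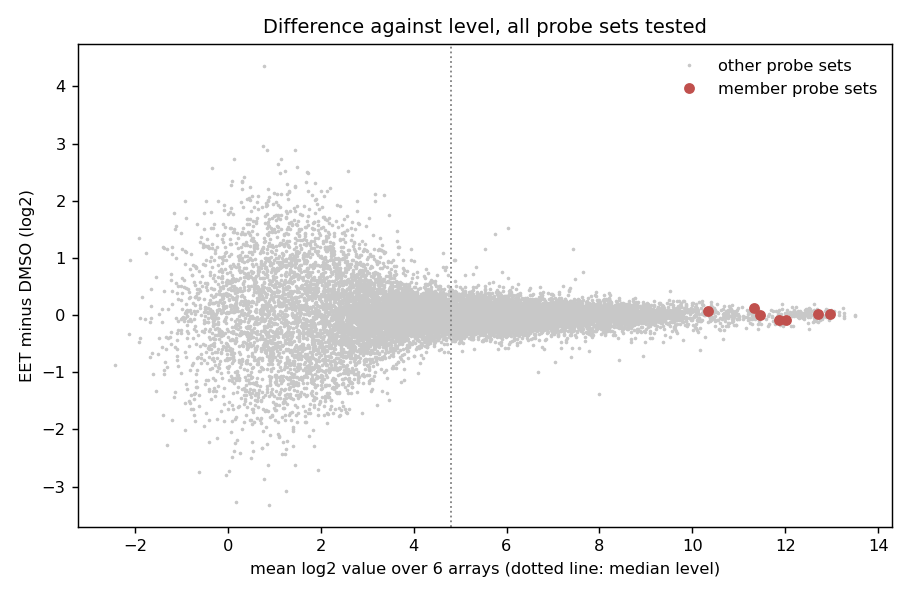
The EET minus DMSO difference (log2) against the mean log2 value over 6 arrays for all 15502 probe sets (grey) and the 7 member probe sets (red). The dotted line marks the median level of 4.81. The members lie between about 10 and 13, where differences scatter least, and all lie near 0.

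The genes apoeb, apoc1 and apoa2 lie close together. In the RefSeq gene table of the GRCz12tu assembly they belong to a run of 10 protein-coding genes on chromosome 16, in the order apoa4b.1, LOC100005908, apoa4b.3, si:dkey-7f3.14, apoa4b.2, apoeb, apoc1, apoc4, apoa2 and apoc2. Of this run 7 genes were measured, 6 of them among the brighter probe sets, and those 6 differed by -0.08 to 0.06 between EET and DMSO. The gene next to apoa2, apoc2, which encodes the activator of lipoprotein lipase, had log2 values of 11.45, 11.38 and 11.51 in EET embryos and 11.43, 11.28 and 11.43 in DMSO embryos. Its difference was 0.06 ± 0.10. The other measured gene, apoc4, was dim, at 0.44 ± 0.79 in EET embryos and 1.79 ± 1.05 in DMSO embryos (SD, n = 3 each), levels not known to be above background.

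Over all 15 apolipoprotein genes measured, members included, 0 passed, 8 were higher and 7 lower in EET, and the median difference was 0.01. Of the 13 brighter ones, 11 differed by less than 0.15 in size, the exceptions being apoba, given below, and apodb, at 0.30 ± 0.30. The median size over all brighter probe sets was 0.10, also under 0.15, so small differences are not particular to apolipoproteins. One of the 15, apoba, a paralogue of apobb.1, did not overlap between the groups, where 11.7% of all probe sets did not. Its log2 values were 9.74, 10.09 and 10.10 in EET embryos and 10.22, 10.35 and 10.11 in DMSO embryos, a difference of -0.25 ± 0.14 (limma adjusted p = 0.932). Its highest EET value and its lowest DMSO value were almost equal. A second probe set of apoba, dim by its mean level, differed by 0.18 ± 2.50. Its log2 values were -0.10, 2.58 and 6.97 in EET embryos and 0.71, 1.14 and 7.07 in DMSO embryos. Replicate 3 thus lay above the mean of replicates 1 and 2 by 5.72 in EET and by 6.15 in DMSO. The paralogue of apoeb, apoea, differed by 0.08 ± 0.12.

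Genes that act with the members were looked up in lists of related genes. Of 21 measured genes that build, bind or break down lipoproteins, none passed in either direction, and the median difference was 0.06. The smallest p was that of angptl4, which encodes a secreted inhibitor of lipoprotein lipase. Its log2 values were 8.10, 8.14 and 8.05 in EET embryos and 7.85, 7.79 and 7.65 in DMSO embryos, so that every EET array lay above every DMSO array. The difference was 0.33 ± 0.10 (limma adjusted p = 0.930). After angptl4 and before apoc4 came mttp, whose product loads lipid onto apolipoprotein B, at 0.58 ± 0.24 (dim), and the endothelial lipase gene lipg, at 0.22 ± 0.10.

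For the yolk, vtg1 itself was not measured, and the vitellogenin genes that were gave weak signals. The log2 values of vtg4 were -0.975, 1.13 and -0.52 in EET embryos and 2.14, 1.75 and 2.01 in DMSO embryos, a difference of -2.09 ± 0.56 (limma adjusted p = 0.897). These values are far below the median level of 4.81 and are not known to be above background, as are those of vtg2 and vtg3, which differed by 0.06 ± 0.50 and 0.53 ± 1.21. Of 14 measured yolk protein and yolk processing genes none passed, 8 were higher and 6 lower, and the median was 0.06. Besides vtg4, the smallest p-values in this list were those of the cathepsin genes ctsl.1 (0.82 ± 0.28, dim) and ctsz (0.32 ± 0.14) and of mxtx2, a transcription factor gene of the yolk syncytial layer (0.73 ± 0.40, dim). Another dim probe set of ctsl.1 differed by 0.11 ± 1.08.

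Of 23 measured genes of other liver proteins, most of them secreted, none passed, 14 were higher and 9 lower, and the median was 0.04. The genes with the smallest p were agt, the angiotensinogen gene (0.80 ± 0.31, dim), the fibrinogen chain gene fgb (0.22 ± 0.11), the plasminogen gene plg (0.29 ± 0.16), and fabp10a, the liver fatty acid binding protein gene (-0.945 ± 0.55, dim). A second probe set of plg, also among the brighter ones, differed by 0.01 ± 0.24. Hepatocyte markers were measured in 10 of 11 cases, 6 of them among the brighter probe sets, counting hhex, whose DMSO mean of 4.70 lay below the median level. Their median was 0.06, and those with the brightest probe sets, fgg, fgb and ambp, differed by -0.02, 0.22 and 0.01. The defining marker fabp10a lay below the median level on all 6 arrays, at 3.28, 1.31 and 2.25 in EET embryos and 3.16, 2.79 and 3.73 in DMSO embryos.

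Of 12 liver transcription factor genes none passed, and the median was 0.06, with foxa3 (0.20 ± 0.11), nr5a2 (-1.12 ± 0.64, dim), hhex (0.29 ± 0.17) and cebpb (0.19 ± 0.12) at the smallest p. Of 19 measured genes that handle the iron, vitamin A and thyroid hormone carried by these proteins none passed, and the median was 0.01, with crabp2a (0.20 ± 0.15), thrb (-1.097 ± 0.98, dim), cyp26c1 (0.27 ± 0.27, dim) and cyp26b1 (0.09 ± 0.09) at the smallest p. For thrb the difference turned to 0.17 without both replicate 3 arrays. Another probe set of cyp26b1, also among the brighter ones, differed by 0.13 ± 0.13, and its dim ones by -0.40 ± 0.38 and -0.03 ± 0.31. The ferritin gene fth1a, the iron exporter gene slc40a1 and the retinol-binding protein receptor gene stra6 differed by 0.03 ± 0.10, -0.04 ± 0.10 and -0.05 ± 0.25. These 3 were chosen after their values were seen, because they handle what tfa and rbp4 carry.

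Markers of other tissues in the pools also gave no calls. The median was 0.09 over 4 intestinal, 0.28 over 6 pancreatic and 0.03 over 5 red blood cell genes. All but 1 of the pancreatic genes lay below the median level, the exception being ins. None of the 4 listed hatching gland genes was measured.

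**Figure D4:**
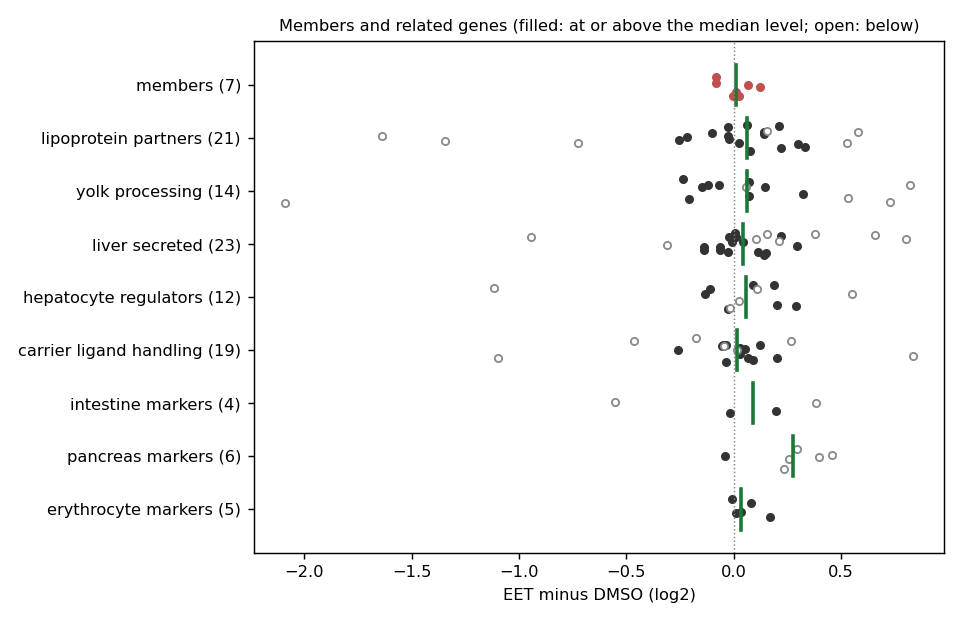
The EET minus DMSO difference (log2) of each gene, for the members and the related lists, with the number of measured genes in brackets; filled points lie at or above the median level, open points below it, and the bar marks the list's median. The large differences belong to open points, and the 7 members lie between -0.08 and 0.13.

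In some genes of yolk, gut and liver the replicate 3 arrays lay farther from the other arrays than the EET mean lay from the DMSO mean. Both replicate 3 arrays lay above the other 4 in 1 of the 7 members, rbp4, and below them in 1, apoa1a, where 10.5% and 10.4% of all probe sets did so. Of the 500 probe sets nearest to rbp4 in level, 98.8% had a smaller mean shift of replicate 3 than its 0.70. For apoa1a the shift was -0.05. Of the 5 measured red blood cell genes, 1 lay above and 3 below in both replicate 3 arrays. The separation of replicate 3 was thus not particular to genes of yolk, gut and liver.

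Among the 23 genes of the liver protein list 5 lay above in both replicate 3 arrays and 3 below. The 3 below were c8b, itih2 and the dim ahsg1. The 5 above were leg1.1, a liver-enriched secreted protein gene, the haptoglobin gene hp, the complement gene c9, the coagulation factor gene f5 and the antitrypsin-like gene serpina1l. The shift of leg1.1 was 1.98 in EET and 1.59 in DMSO. The intestinal fatty acid binding protein gene fabp2 lay on the other side, at -0.58 in EET and -0.89 in DMSO, as did the cathepsin B gene ctsba, at -0.84 in EET and -0.94 in DMSO. Probe sets of 1 gene could differ in this. The brightest probe set of apoa4b.2 shifted by 0.08 in EET and -0.24 in DMSO. Another of its probe sets, also among the brighter ones, shifted by -1.03 in EET and -0.89 in DMSO. These genes were chosen after their values were seen, and no label says what sets replicate 3 apart.

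**Figure D5:**
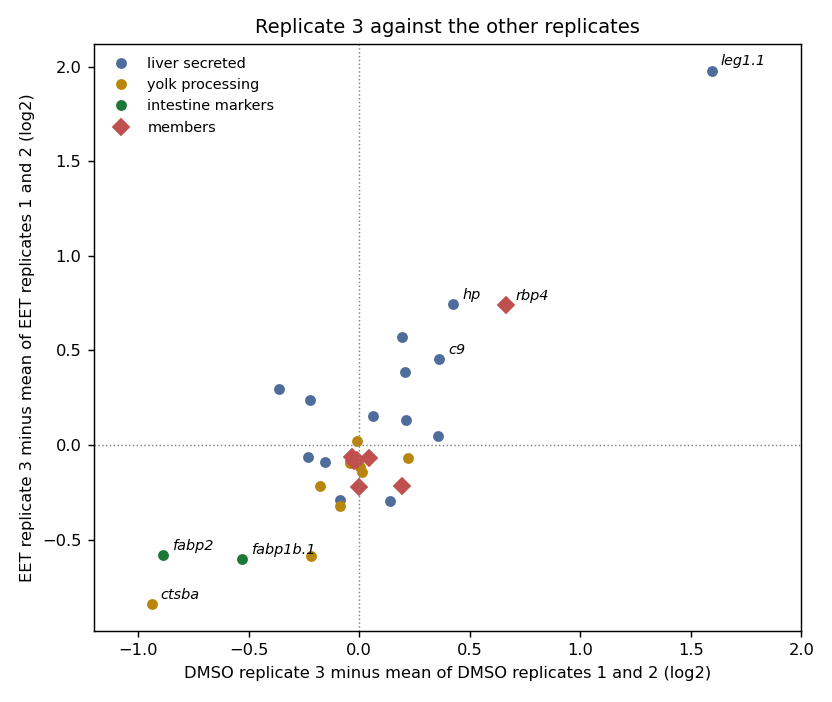
The difference of EET replicate 3 from the mean of EET replicates 1 and 2 (vertical axis) against that of DMSO replicate 3 from the mean of DMSO replicates 1 and 2 (horizontal axis), both in log2 units, for the members and for the brighter genes of 3 related lists. Genes shifted by over 0.4 in EET and over 0.3 in DMSO are named; rbp4 lies at the upper right with leg1.1, hp and c9, and the other 6 members lie near the centre.

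The mean profile of the 7 members over the 6 arrays was nearly flat, from -0.05 to 0.07 around its mean. The genes with the nearest profiles among 5311 brighter genes were rtn4a, a reticulon gene, rpl18, a ribosomal protein gene, and mcm5, a gene of the replicative helicase. Their root mean square distances over 6 arrays were 0.01, 0.01 and 0.02 on the log2 scale. An average of 7 genes is flatter than most single genes, so a gene that varied little lies near it. The profile is not that of any one member, though rbp4, the most variable of the 7, weighs most in it.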

How the data were processed

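Per the labels' protocols, 6 µg of total RNA was made into biotin-labelled cRNA for Affymetrix arrays of zebrafish, with 1 colour. The authors' deposited table holds 1 log2 value per probe set and array; how they corrected background, summarised probes and scaled arrays is not stated by any source used here. The base of the logarithm was settled from the values: as a natural log the highest, 13.63, would be above 65535, the most a scanner records. No detection calls were used. Of 15617 probe sets 115 controls were left out. Names came from the platform annotation through Entrez identifiers: 10795 tested probe sets had 1 symbol, 135 several and 4572 none. A gene is represented by its brightest probe set.

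The test was that of limma 3.58.1, run in R 4.3.3 (lmFit, eBayes, 2-sided, no covariates), adjusted over all 15502 probe sets. The procedure was also run on simulated data, in 10 simulations with 200 changed probe sets. The shares that follow hold for that setting and are not the power for the 7 members. Over 15502 probe sets it recovered 66.1% of 2-fold and 95.2% of 4-fold differences, and 6.61% of its calls were false. Over the 7751 brighter ones these shares were 87.2%, 98.8% and 4.92%. The SE and intervals are limma's. The number of arrays limits the precision. Members and lists were chosen with earlier results of these data known, so lists get no test. Named are all members, up to 4 genes per list with the smallest p, and the 3 nearest profiles. Also named are genes marked as chosen after their values were seen, and apodb for the size of its difference. For their family, place or level, vtg2, vtg3, apoba, apoea, apoc2, fgg and ambp are named. Levels of different genes are compared only as signals, such as brighter or dim, and not as amounts of RNA. Promoter and protein sequences were not used here, and a planned motif search was not run.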

Additional observations from a re-analysis of the deposited data

How the results depend on the processing

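With 18 alternatives, 0 of 7 members were called in each, and the members' median difference ranged from -0.0050 to 0.04. For scale, each array's median member value, with genes centred on their means, had an SD of 0.05 between arrays of a group. That is not an SD of the difference. The differences of apoa1a, apoeb, apoc1 and tfa kept their direction in all 18. That of apoa2 turned to -0.0022 with quantile normalization, and ranged from -0.0050 to 0.035 with 1 array left out. That of apobb.1 turned to 0.024 with quantile normalization, 0.0017 with median centring, 0.024 with array weights and 0.14 without both replicate 3 arrays, and ranged from -0.089 to 0.071 with 1 array left out. That of rbp4 ranged from -0.18 (without EET replicate 3) to 0.29 with 1 array left out. None of these was called, and the cause was not tested. Members whose groups did not overlap numbered 0, but 0 to 2 with 1 array left out and 4 (apoa1a, apoa2, apobb.1 and tfa) without both replicate 3 arrays, settings with fewer arrays. Without both replicate 3 arrays 36.4% of all probe sets did not overlap. With 1 array left out the share over all probe sets is not given, so those counts cannot be read as a result about the members. Arrays with the same number had deviations from their group means with correlations of 0.18, 0.24 and 0.55 among the brighter probe sets, which include all 7 members, but of 0.04, 0.06 and 0.15 when dim probe sets were included. Whether the numbers pair the arrays is therefore not settled. With the replicate block 0 members and 0 of 15502 probe sets were called, and the SE of rbp4 was 0.12, against 0.30 without it. Over all probe sets 0 were called, against 1 with median centring, array weights or an adjusted p under 0.10, 2 with log2(2^value + 32), 3 with trend and robust and 6 among the brighter probe sets.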

Other observations

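The thyroid hormone receptor gene thrb, which answers to the hormone that transthyretin carries, had 4 probe sets that did not share a direction by group mean. The brightest differed by -1.097 ± 0.98 and the other 3 by 0.87 ± 0.41, 0.90 ± 0.20 and 0.77 ± 0.70 (EET minus DMSO, log2, SE from limma). In the brightest, EET replicate 3 lay at -0.103, below every other array. Without both replicate 3 arrays the brightest differed by 0.17 and the other 3 by 1.19, 1.09 and 1.13. The 4 then shared a direction. All 4 lay below the median level and none was called. The gene was picked out here after its values were seen.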
